A study of Mus musculus with 3 samples.

Results

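The genes described here are 36 immediate-early and heat shock genes, a common measure in dissociated tissue of how far cells were activated or stressed before their RNA was captured. They were chosen by gene symbol, and all 36 were found among the 32285 genes of each library. They fall into 4 groups: 9 transcription factor genes of the Fos, Jun and Egr families, the 3 Nr4a nuclear receptor genes, 12 other immediate-early genes, and 12 heat shock genes. Values are described by cell lineage and library.

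The 3 libraries hold single-cell RNA from large intestine of C57/BL6J mice with acute colitis, with 1 library per treatment. All mice drank 1.5% dextran sulfate sodium (DSS) for 7 days and water for 3 days more, and received 250 µg of antibody by intraperitoneal injection 3 times a week. The antibody was a rat IgG isotype control, DATK32 or MECA-367, so the control mice also had DSS colitis, and no mice without DSS were analysed here. DATK32 is known to bind the gut-homing integrin of lymphocytes and MECA-367 its vascular ligand MAdCAM-1, whereas the labels name DATK32 as a stand-in for ontamalimab, an antibody to MAdCAM-1, and MECA-367 as one for vedolizumab, an antibody to the integrin. The libraries are therefore named by clone. Lamina propria mononuclear cells were sorted by flow cytometry as viable and CD45-positive and loaded on a 10x 3' kit, and all libraries were sequenced in 1 lane. The number of mice behind a library is not stated, so no difference below has a replicate check, and no p-value is given.

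Immediate-early genes are transcribed within minutes of a signal and need no new protein synthesis for it. Signals through kinases act on factors already bound at their promoters, such as serum response factor and CREB. Fos and Jun proteins pair into the AP-1 transcription factor, Egr and Nr4a proteins are further DNA-binding factors, and Dusp1, Zfp36 and Atf3 are among the products that damp the signal or its targets. Heat shock genes are driven largely by heat shock factor 1 when unfolded protein accumulates, and their products are chaperones. Enzymatic and warm dissociation of tissue is known to raise both sets, as do inflammation and cell activation in the animal, and a level measured after sorting does not separate them.

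The filter of at least 500 UMIs (unique molecular identifiers, 1 per captured RNA molecule), at least 200 genes and at most 10% mitochondrial UMIs kept 7367 of 10826 barcodes for rat IgG, 5852 of 8445 for DATK32 and 5890 of 8387 for MECA-367. The kept barcodes hold 18109793, 17450259 and 18357517 UMIs, with medians of 1469, 1524 and 1824 UMIs per cell. Ptprc, which encodes CD45, was detected in 25.3%, 26.6% and 38.4% of kept cells, and epithelial and stromal clusters were large in spite of the CD45 gate. Of 28 clusters, 22 were named from marker genes, and the 12 lineages that held 50 cells or more per library were compared. They ranged from 100 pacemaker-like cells in MECA-367 to 1831 epithelial cells in rat IgG, with 1290, 881 and 1240 fibroblasts, 222, 151 and 173 smooth muscle cells, 107 or fewer endothelial cells per library, 293, 284 and 643 neutrophils, and 250, 307 and 336 T cells. One lineage is a mixed cluster in which T cell and NK cell markers both lead. Kept barcodes shared between libraries numbered 11 for rat IgG and DATK32, 9 for rat IgG and MECA-367 and 7 for DATK32 and MECA-367, and leaving them out moved no count of calls beyond the limit used to call a change.

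The promoters below are shown because they hold the motifs of the known regulators of the Nr4a and heat shock genes. Each is the 250 bases upstream of the RefSeq transcription start (build GRCm38.p6), written 5′ to 3′ on the gene's strand. In the first 4, the capitals mark TGACG or its complement CGTCA, the core of the cyclic AMP response element that CREB binds. These are Fos (chr12:85473640-85473889, plus strand), Nr4a1 (chr15:101266596-101266845, plus strand), Nr4a2 (chr2:57124004-57124253, minus strand) and Nr4a3 (chr4:48045055-48045304, plus strand).
Fos: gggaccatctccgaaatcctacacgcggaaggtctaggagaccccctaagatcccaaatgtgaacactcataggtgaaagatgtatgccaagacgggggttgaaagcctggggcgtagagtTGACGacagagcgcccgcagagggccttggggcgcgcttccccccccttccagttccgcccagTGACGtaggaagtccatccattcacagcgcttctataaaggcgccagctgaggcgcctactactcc
Nr4a1: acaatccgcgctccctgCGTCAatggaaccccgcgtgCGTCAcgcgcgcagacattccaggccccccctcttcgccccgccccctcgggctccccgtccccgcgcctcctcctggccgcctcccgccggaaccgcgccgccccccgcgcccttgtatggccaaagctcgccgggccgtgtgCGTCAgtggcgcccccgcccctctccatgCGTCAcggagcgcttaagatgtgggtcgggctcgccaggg
Nr4a2: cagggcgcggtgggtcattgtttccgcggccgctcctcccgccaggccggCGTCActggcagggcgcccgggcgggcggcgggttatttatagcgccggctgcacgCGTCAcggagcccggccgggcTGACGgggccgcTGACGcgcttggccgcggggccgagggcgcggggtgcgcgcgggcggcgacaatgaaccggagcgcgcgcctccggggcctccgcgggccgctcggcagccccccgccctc
Nr4a3: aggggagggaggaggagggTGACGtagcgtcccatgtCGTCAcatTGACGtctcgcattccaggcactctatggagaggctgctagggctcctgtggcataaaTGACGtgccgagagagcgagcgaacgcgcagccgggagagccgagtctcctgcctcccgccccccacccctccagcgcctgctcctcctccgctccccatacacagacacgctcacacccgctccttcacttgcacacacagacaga
Fos holds 2 such cores and each of the 3 Nr4a promoters holds 4. At least 1 core, on either strand, is present in 17.9% of 27025 promoter windows of this length, and 4 or more are present in 0.152% of them. Among the 30 members with a promoter entry, 14 hold at least 1. The full element TGACGTCA, found in 1.62% of windows, is present in Dusp1 and Btg2.

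In the next 4 promoters the capitals mark GAANNTTC, a pair of facing units of the heat shock element that heat shock factor 1 binds. They are Hspa1a (chr17:34972157-34972406, minus strand), Hspa1b (chr17:34959239-34959488, minus strand), Hspb1 (chr5:135887669-135887918, plus strand) and Hspe1 (chr1:55087898-55088147, plus strand).
Hspa1a: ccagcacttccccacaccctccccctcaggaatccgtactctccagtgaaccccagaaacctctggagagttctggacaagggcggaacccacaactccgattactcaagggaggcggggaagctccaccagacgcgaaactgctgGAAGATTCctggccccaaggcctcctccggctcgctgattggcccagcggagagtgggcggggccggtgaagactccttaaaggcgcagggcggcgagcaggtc
Hspa1b: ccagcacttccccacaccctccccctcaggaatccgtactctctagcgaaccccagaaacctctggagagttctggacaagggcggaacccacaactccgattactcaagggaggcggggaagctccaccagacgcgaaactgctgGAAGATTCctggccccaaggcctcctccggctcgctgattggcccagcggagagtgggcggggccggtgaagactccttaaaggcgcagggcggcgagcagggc
Hspb1: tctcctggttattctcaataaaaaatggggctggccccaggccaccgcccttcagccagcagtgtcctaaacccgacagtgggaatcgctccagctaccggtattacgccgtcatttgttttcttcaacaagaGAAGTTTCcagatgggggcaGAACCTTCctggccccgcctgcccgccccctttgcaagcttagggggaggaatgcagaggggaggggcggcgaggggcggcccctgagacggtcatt
Hspe1: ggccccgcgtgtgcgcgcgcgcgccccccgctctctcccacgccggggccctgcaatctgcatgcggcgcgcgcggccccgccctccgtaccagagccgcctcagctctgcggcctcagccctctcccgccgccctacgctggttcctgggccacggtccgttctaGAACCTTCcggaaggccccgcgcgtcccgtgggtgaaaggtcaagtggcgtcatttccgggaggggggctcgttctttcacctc
This motif, which reads the same on both strands, is present in 6.78% of windows. It was found in 5 of 10 heat shock members with an entry (the 4 shown and Dnaja1), in 2 of 7 of the Fos, Jun and Egr genes (Fosl2 and Jun), in 0 of 3 Nr4a genes and in 0 of 10 other immediate-early genes. Hspb1 holds 2 copies, and 0.226% of windows hold 2 or more. The longer element with 1 more GAA or TTC unit in register is present in 0.400% of windows and, among members, in Hspe1. The Hspa1a and Hspa1b windows are identical at 247 of 250 bases (98.8%), and the transcripts of this pair of inducible Hsp70 genes are also near-identical, so how their reads were split is uncertain and both are best read together. A match describes letters in a window and is not evidence of binding.

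Levels are given as CPM, the UMIs of a gene or group per 1000000 UMIs of the same lineage in the same library, always in the order rat IgG, DATK32, MECA-367. Over all kept cells the 36 genes made up 2.06%, 2.12% and 2.11% of UMIs, so the libraries differ little in total. The Fos, Jun and Egr genes made up 0.903%, 0.922% and 0.95%, the Nr4a genes 0.0576%, 0.0588% and 0.0560%, the other immediate-early genes 0.554%, 0.600% and 0.614%, and the heat shock genes 0.542%, 0.540% and 0.493%. The lineages differ far more than these totals do.

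The Fos, Jun and Egr genes were highest in structural cells. Their summed level was 12839, 12309 and 18904 CPM in fibroblasts, 10906, 13069 and 16817 CPM in smooth muscle cells, and 11324, 13745 and 17511 CPM in endothelial cells. In epithelial cells it was 11333, 11249 and 10757 CPM, nearly level across the libraries. Among immune lineages neutrophils stood highest, at 8720.1, 8145 and 6514 CPM, and plasma cells lowest in rat IgG and DATK32, at 3974, 3644 and 3853 CPM. The 10 plasma cell markers, Jchain, Igkc and Igha among them, held 403475, 476591 and 494994 CPM of plasma cells. Low plasma cell levels here and below are shares of a total that includes these UMIs, and ranks without them were not tested. T cells had 4371, 4539 and 3549 CPM and monocytes or macrophages 4861, 4548 and 4115 CPM.

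**Figure D1:**
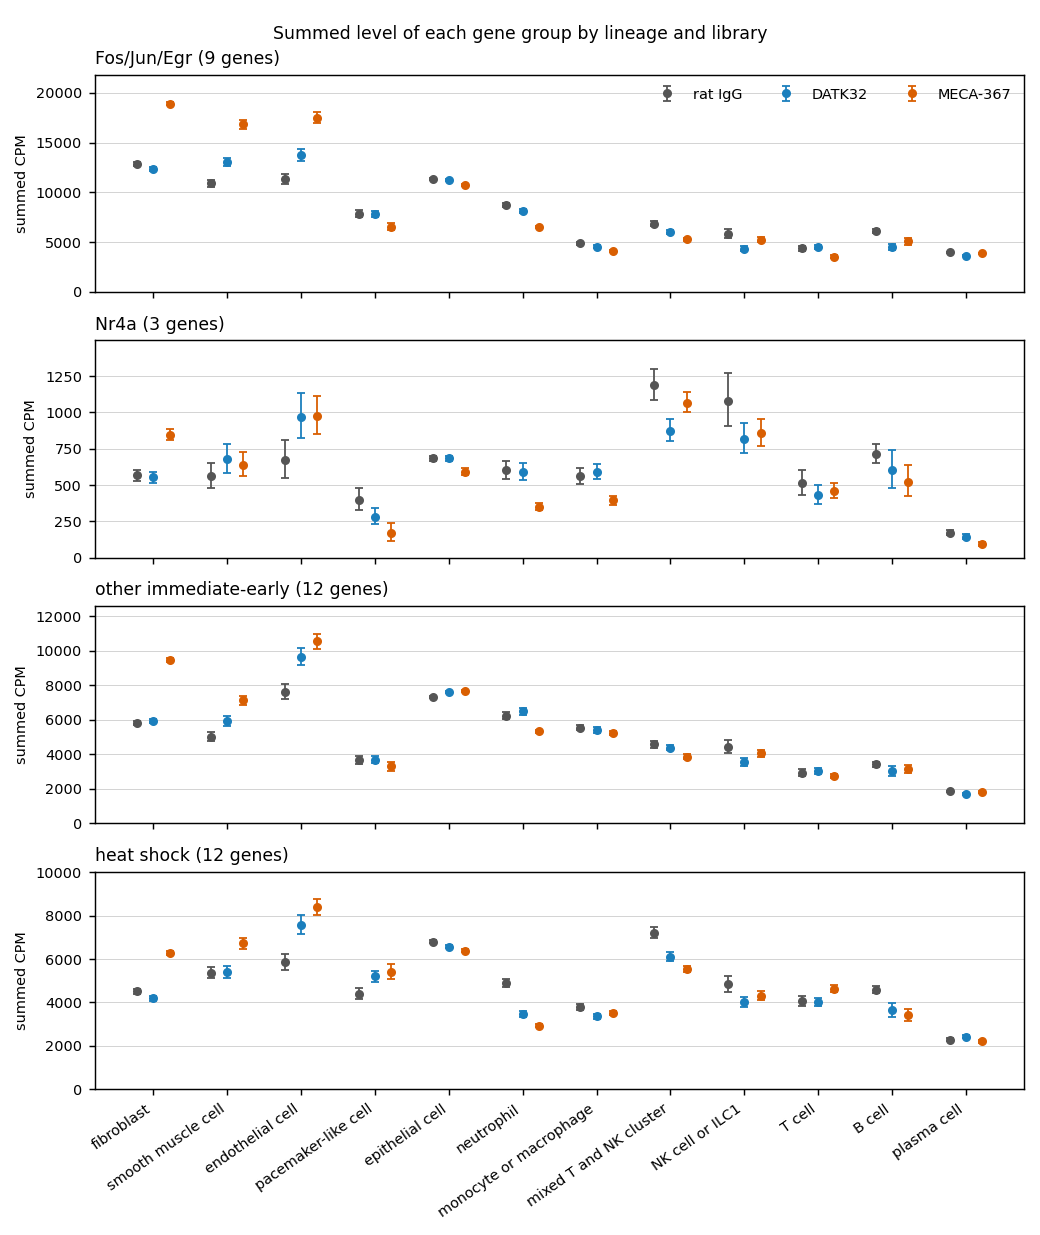
Summed level of each of the 4 gene groups (vertical axis, CPM from 0) by lineage (horizontal axis) in each library, coloured by antibody. Points are sums over all cells of the lineage and bars are exact Poisson 95% intervals, which cover counting error only. In fibroblasts, smooth muscle and endothelial cells the Fos, Jun and Egr sum of MECA-367 lies above that of rat IgG, at 18904 against 12839 CPM in fibroblasts.

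The Nr4a genes had another order. In rat IgG they stood highest among the compared lineages in the mixed T and NK cluster (1189, 875 and 1067 CPM) and in the NK or ILC1 cells (1077, 819 and 857 CPM). Endothelial cells, at 669.9, 969.7 and 974 CPM, were highest in DATK32 and second to the mixed cluster in MECA-367. Type 2 innate lymphoid cells, too few to compare in rat IgG at 44 cells, had 2109, 1720.1 and 2394 CPM, which is higher in each library than any compared lineage. In fibroblasts the sum was 567, 552 and 847 CPM, and in plasma cells 172, 142 and 92.3 CPM. The members divided this between them by lineage. Nr4a1, the T cell receptor-responsive Nur77, was 457, 442 and 678 CPM in fibroblasts and 446, 263 and 206 CPM in the mixed cluster. Nr4a2 was 65.1, 59.5 and 95.9 CPM in fibroblasts but 480.3, 353 and 555 CPM in the mixed cluster.

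The other immediate-early genes summed to 7616, 9649 and 10531 CPM in endothelial cells, 7291, 7598 and 7672 CPM in epithelial cells and 5823, 5921 and 9483 CPM in fibroblasts, with plasma cells lowest at 1852, 1712 and 1798 CPM. Several members were marked by lineage. Dusp2, a phosphatase of MAP kinases found mainly in leukocytes, was 519, 524 and 542 CPM in monocytes or macrophages and 27.6, 3.63 and 10.4 CPM in fibroblasts. Rgs1, a regulator of G-protein signalling in lymphocytes, was 1099, 872 and 1045 CPM in NK or ILC1 cells and 6.12, 2.66 and 4.41 CPM in epithelial cells. Atf3, a stress-induced factor of the CREB family, was 1489, 1636 and 1638 CPM in epithelial cells and 371, 459 and 139 CPM in the mixed cluster. Ier3, a survival-related early gene, was 1119, 1584 and 1572 CPM in endothelial cells and 382, 472 and 1013 CPM in fibroblasts.

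The heat shock genes were spread more evenly. Their sum was 5854, 7577 and 8382 CPM in endothelial cells, 7209.6, 6118 and 5541 CPM in the mixed cluster, 6805, 6578 and 6382 CPM in epithelial cells, and 4516, 4194 and 6291 CPM in fibroblasts. Plasma cells were lowest at 2292, 2422 and 2209.6 CPM. Hspb1, the small chaperone Hsp27, was 729, 592 and 1496 CPM in smooth muscle cells and 741, 1403 and 1505 CPM in endothelial cells, against 40.1, 27.8 and 24.7 CPM in epithelial cells and 6.96, 9.45 and 0 CPM in T cells. Dnaja1, an Hsp40 co-chaperone, reached 1055, 875 and 924 CPM in the mixed cluster.

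**Figure D2:**
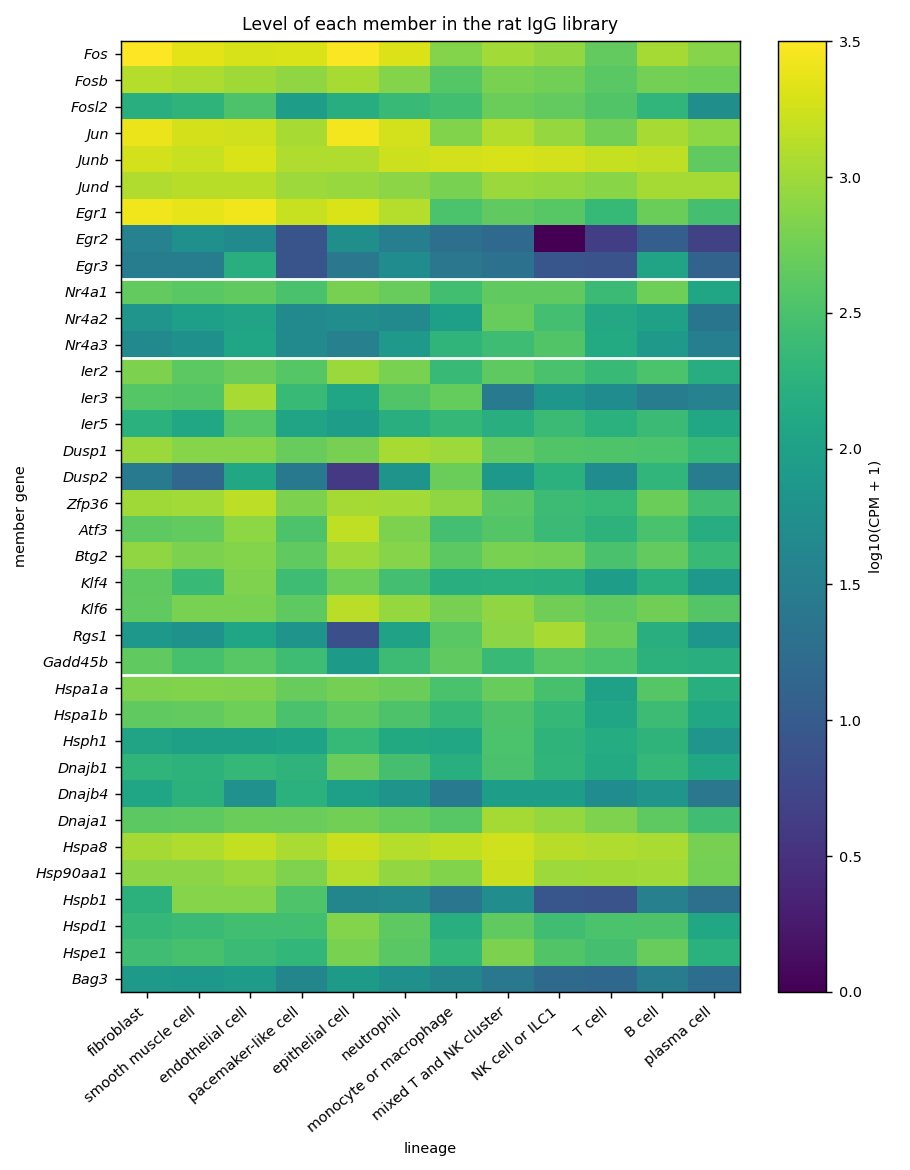
Level of each of the 36 members (rows) in each of the 12 lineages (columns) of the rat IgG library, coloured by log10(CPM + 1). Low levels are dark and high levels bright. Hspb1 is brighter in smooth muscle and endothelial cells (729 and 741 CPM) than in T cells (6.96 CPM). Fos is found in every lineage, from 463 CPM in T cells to 3174 CPM in fibroblasts.

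A member is called higher or lower between libraries where the levels differ by at least 1.5-fold and their exact Poisson 95% intervals do not overlap. Members with at least 50 counts over the 3 libraries in a lineage were measured, which gave 397 values of a member in a lineage. Ratios are log2 values with 1 count added to each sum, followed in brackets by the exact 95% interval that the counts give the ratio, which covers counting error only. Both antibody libraries were set against the same rat IgG library.

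Most called members were higher in MECA-367 than in rat IgG in fibroblasts, smooth muscle and endothelial cells, and lower in neutrophils, the mixed T and NK cluster, monocytes or macrophages, B cells and NK or ILC1 cells. Epithelial cells, T cells and plasma cells had few calls, and in pacemaker-like cells more were lower than higher. Of the 397 values, 45 were higher in MECA-367, against 3.10% of all measured genes, and 62 were lower, against 6.49%. Members are well-counted genes, for which calls are easier: among values with at least 200 counts, 14.2% of the members' were higher and 16.1% lower, against 5.28% and 7.45% of all genes. By group, 11 values were higher and 17 lower of 95 for the Fos, Jun and Egr genes, 2 and 8 of 34 for the Nr4a genes, 19 and 14 of 135 for the other immediate-early genes, and 13 and 23 of 133 for the heat shock genes. When ratios were centred on the median of all measured genes in each lineage, 60 values were higher and 42 lower, against 4.82% and 3.78% of all genes, so the balance of directions depends on the scaling. That median was -0.40 in neutrophils, -0.11 in fibroblasts and -0.08 in endothelial cells.

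In fibroblasts 14 of 36 members were higher in MECA-367 than in rat IgG and 1 was lower, against 3.76% and 7.26% of all genes. The median member ratio was 0.54, against -0.11 over all genes. Gadd45b, a stress-response and growth-arrest gene, was at 449 CPM in rat IgG, 457 CPM in DATK32 and 1227 CPM in MECA-367, a log2 ratio of 1.45 [1.34, 1.57] for MECA-367 over rat IgG. Ier3, given above, had a ratio of 1.40 [1.28, 1.53]. Both genes were alike or modestly apart in rat IgG and DATK32 and high in MECA-367 alone.

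Jund, the Jun family member least dependent on stimulation, was at 1211, 1369.6 and 2382 CPM in fibroblasts, a ratio of 0.98 [0.90, 1.05]. The inducible chaperone gene Hspa1a was at 662, 528 and 1193 CPM (0.85 [0.75, 0.95]), and its co-chaperone gene Dnajb1 at 197, 185 and 353 CPM (0.84 [0.66, 1.03]). Fosb was at 1292, 1080.2 and 1967 CPM (0.61 [0.53, 0.68]). The classical members did not reach the fold: Fos was at 3174, 3191 and 4182 CPM (0.40), Jun at 2470.1, 2358 and 3598 CPM (0.54) and Egr1 at 2649, 2544 and 3881 CPM (0.55). The lower member was the leukocyte gene Dusp2, with a ratio of -1.39 [-2.15, -0.70].

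Smooth muscle cells showed 12 of 32 members higher and 1 lower in MECA-367, against 3.53% and 3.16% of all genes. Fos was at 2294, 3566 and 3961 CPM (0.79 [0.66, 0.92]) and Klf4, a factor that represses the contractile programme, at 229, 383 and 426 CPM (0.89 [0.49, 1.32]). Hspb1 had a ratio of 1.03 [0.81, 1.27], and DATK32 was the lowest library. Klf6 was the lower member, at -0.89 [-1.22, -0.57].

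Endothelial cells also showed 12 of 32 members higher and 1 lower, against 3.90% and 4.22% of all genes. Fos was at 1945, 3210.4 and 3867 CPM (0.99 [0.80, 1.19]), and Hspb1 had a ratio of 1.01 [0.71, 1.34]. For both genes DATK32 lay near MECA-367 and apart from rat IgG. Hspd1, the mitochondrial chaperonin Hsp60, was at 273, 217 and 116 CPM (-1.21 [-2.00, -0.49]). The endothelial cells of the 3 libraries differ in plasma cell RNA: Jchain, Igkc and Igha summed to 722, 7939 and 51737 CPM in them, and the part of this in the ratios was not tested. With immunoglobulin, mitochondrial and ribosomal UMIs left out of the total, the Fos, Jun and Egr sum had a ratio of 0.67, against 0.63 with them in. In cells of under 1000 UMIs (60, 51 and 21 cells) this sum was 18089.7, 14768 and 20023 CPM, and the intervals of rat IgG and MECA-367 overlapped. At 2000 UMIs or more it was 8411, 11982 and 16690.3 CPM. Under 2.5% mitochondrial UMIs it was 16323, 13790.1 and 17204 CPM, again with overlapping intervals. From 2.5 to 5% it was 10124, 14811 and 17104 CPM. The part of depth and mitochondrial share in the ratios was not tested.

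In immune lineages the called members were mostly lower in MECA-367. In cells of under 1000 UMIs the Fos, Jun and Egr sum of rat IgG and MECA-367 was 4192 and 5531 CPM in monocytes or macrophages. It was 4884 and 6125 CPM in NK or ILC1 cells and 5444 and 6373 CPM (overlapping intervals) in T cells. B cells had 5750.0 and 4246 CPM and the mixed cluster 6738 and 6469.9 CPM. At 2000 UMIs or more the sum was 5065 and 3933 CPM in monocytes or macrophages and 3521 and 2511 CPM in T cells. The part of depth in the calls was not tested. The mixed T and NK cluster had 12 of 33 members lower and 1 higher, against 4.95% and 3.24% of all genes. Egr1, the zinc finger factor induced through MAP kinase signalling, was at 446, 447 and 189 CPM there (-1.24 [-1.55, -0.93]). Atf3 had a ratio of -1.42 [-1.78, -1.07], which turned to 0.50 in the cluster formed at resolution 2.0. Zfp36, which encodes a protein that destabilises cytokine mRNA, was at 400.3, 337 and 181 CPM (-1.14 [-1.47, -0.82]). At resolution 2.0, 7 of the 12 lower calls were kept. The higher member was Rgs1, at 793, 998 and 1306 CPM (0.72 [0.54, 0.90]).

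Egr1 was called lower in 6 immune lineages. In T cells it was at 223, 262 and 85.7 CPM (-1.38 [-1.91, -0.85]), and in NK or ILC1 cells at 387, 174 and 146 CPM (-1.41 [-1.97, -0.84]). It was at 319, 312 and 183 CPM in monocytes or macrophages (-0.80), 516, 342 and 266 CPM in B cells (-0.93) and 296, 192 and 163 CPM in plasma cells (-0.85). In these lineages MECA-367 was the lowest of the 3 libraries each time, while in fibroblasts, smooth muscle and endothelial cells it was the highest. T cells otherwise had few calls, with 2 of 31 members lower and 1 higher, against 3.77% and 3.52% of all genes. Their Fos, Jun and Egr sum changed order after thinning each cell to 1000 UMIs, to 3874, 4309 and 4404 CPM, so no direction is read from it.

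B cells had 6 of 32 members lower and 0 higher, against 3.66% and 1.83% of all genes. Plasma cell RNA differed in them, with Jchain, Igkc and Igha at a sum of 21654, 3271 and 4098 CPM. With immunoglobulin, mitochondrial and ribosomal UMIs left out of the total, 5 of the 6 calls were kept. Klf4, a quiescence-associated factor, was at 164, 168 and 53.2 CPM (-1.5 [-2.72, -0.69]) and Hspa1a at 381, 259 and 154 CPM (-1.26 [-1.91, -0.75]). Plasma cells had 4 of 35 lower and 1 higher, against 8.73% and 2.80%, shares near the background. Nr4a1 was at 118, 88.1 and 51.8 CPM in them (-1.18 [-1.5, -0.89]). Monocytes or macrophages had 8 of 35 lower and 0 higher, against 5.17% and 2.71%, led by Egr3 (-1.55 [-2.77, -0.47]) and by Hsph1, an Hsp110 nucleotide exchange factor, at 121, 59.5 and 55.0 CPM (-1.13 [-1.57, -0.70]). The same plasma cell genes summed to 1433, 1489 and 5800.0 CPM in them, and all 8 calls were kept with such UMIs out of the total. With finer clusters (resolution 2.0) 0 of the 7 monocyte or macrophage members that could be measured kept the call. NK or ILC1 cells had 5 of 31 lower and 1 higher, against 2.60% and 1.68%. The higher member was Jund, at 879.5, 970.2 and 1554 CPM (0.81 [0.53, 1.12]).

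Neutrophils had 15 of 36 members lower and 0 higher in MECA-367, against 18.7% and 5.51% of all genes, and the median over all genes was -0.40. The members' median was -0.54. After centring on the median of all genes, 3 of the 15 kept the call. Heat shock members led: Hspd1 was at 429, 273 and 176 CPM (-1.29 [-1.51, -1.06]), Hspe1, its Hsp10 partner, at 407, 212 and 178 CPM (-1.19 [-1.42, -0.96]), and Hspa1b at 331, 221 and 140.0 CPM (-1.24 [-1.5, -0.98]). The heat shock sum of neutrophils was 4897, 3448 and 2935 CPM, a ratio of -0.74 [-0.80, -0.68], with DATK32 between the others.

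The neutrophils fell into 2 clusters, whose called members differed in direction. In the larger, led by S100a9, S100a8 and Retnlg (235, 238 and 569 cells), 21 of 36 members were lower and 0 higher in MECA-367, against 20.7% of all genes lower. In the smaller, led by Cxcl13, G0s2 and Cxcl3 (58, 46 and 74 cells), 9 of 31 were higher and 0 lower, against 5.93% higher. The Fos, Jun and Egr sum was 8632, 7534 and 5267 CPM in the first and 9052, 10169 and 13068 CPM in the second, but the Nr4a sum was lowest in MECA-367 in both, at 557, 574 and 309.8 CPM and at 769, 649 and 553 CPM. In the smaller cluster the naming score was 2.23 for neutrophil markers and 1.73 for fibroblast markers, whereas in the larger it was 4.25 for neutrophil markers and 0.57 for the next list. The part of fibroblast RNA in these values was not tested. When both clusters were weighted equally, 4 of the 15 calls in neutrophils were kept.

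Neutrophil members also moved with other measures. Epithelial markers (13 genes) summed to 7700.0, 7332 and 4747 CPM in neutrophils, and fibroblast markers (11 genes) to 3711, 3572 and 2014 CPM. The median depth of neutrophils was 1050.0, 1248 and 2646 UMIs. Within rat IgG, the heat shock sum of neutrophils was 1952 CPM in cells under 2.5% mitochondrial UMIs, 3749 CPM from 2.5 to 5% and 6651 CPM from 5 to 10%. Within these bins MECA-367 had 1587, 3671 and 4794 CPM. Their part in the result was not tested.

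Epithelial cells, the largest lineage in rat IgG with 1831 cells, had 1 of 35 members higher and 2 lower in MECA-367, against 1.43% and 3.23% of all genes, which is near the background. Gadd45b was at 79.2, 74.3 and 122 CPM (0.62 [0.46, 0.78]), the same direction as in fibroblasts. Hspb1 had a ratio of -0.69 [-1.0, -0.40], opposite to its ratio in smooth muscle and endothelial cells. Pacemaker-like cells, named from Kit and Ano1 among other markers, had 2 of 29 higher and 5 lower, against 4.03% and 3.03%. The 5 lower members were Nr4a1, Dusp1, Atf3, Klf4 and Klf6, with Klf6 at -1.38 [-2.03, -0.84]. When each cell was named by its own summed marker fraction, the ratio turned to 0.79 for Atf3 and to 0.21 for Dusp1.

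**Figure D3:**
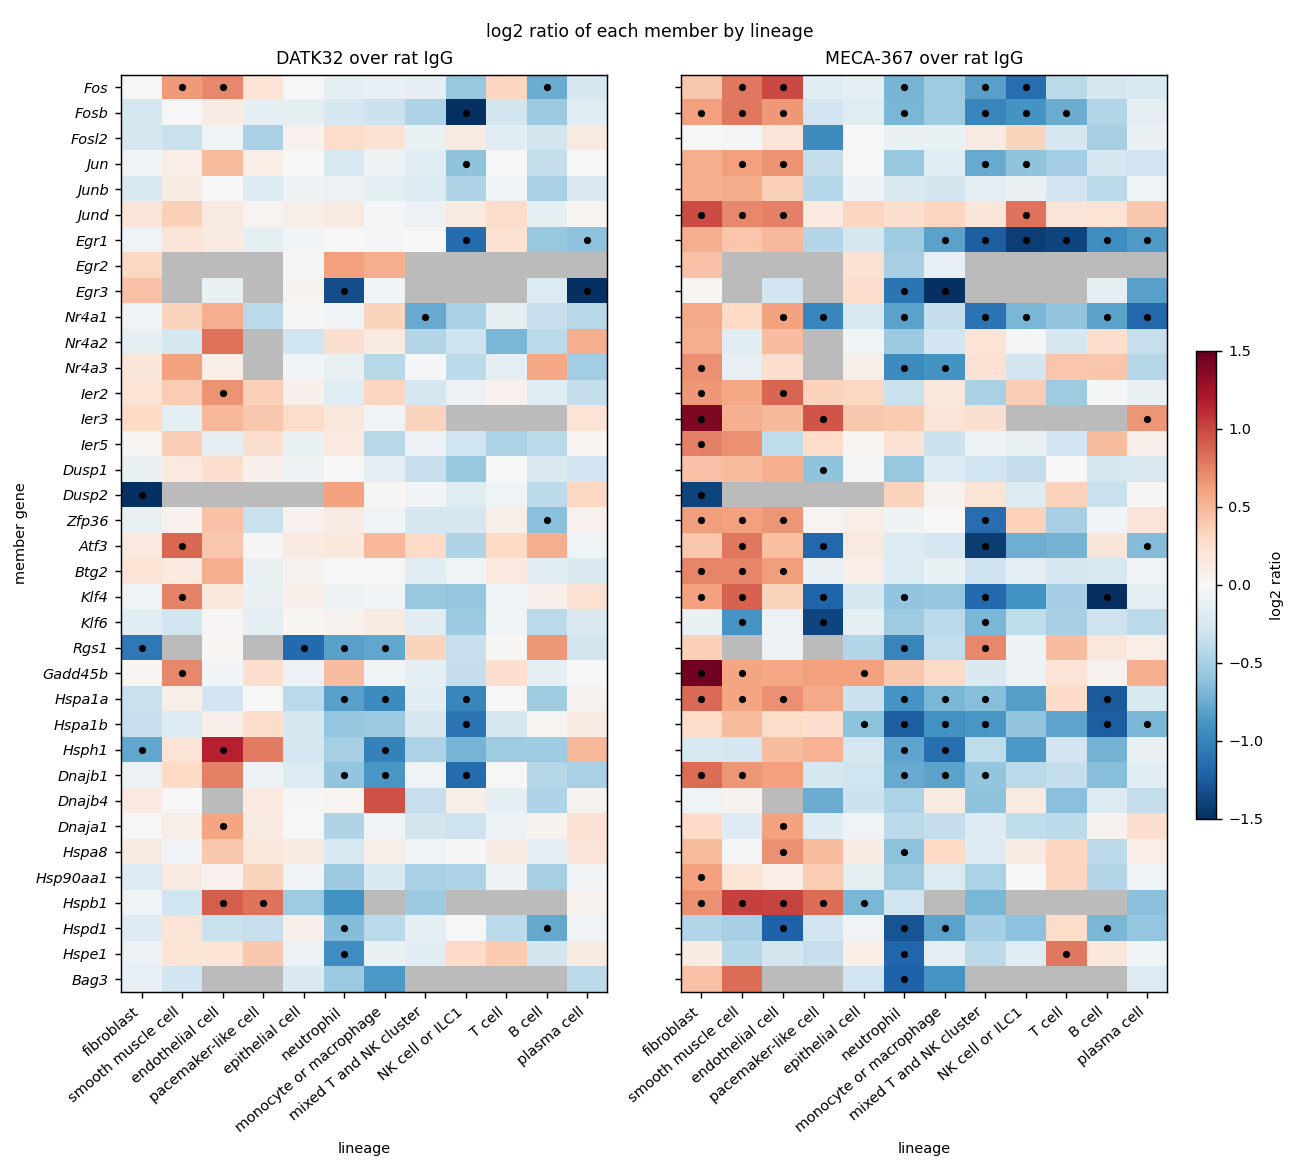
Log2 ratio of each member (rows) in each lineage (columns) for DATK32 over rat IgG (left) and MECA-367 over rat IgG (right), on a colour scale from -1.5 to 1.5, with a dot where the member was called and grey where it was not measured. The right panel is red in fibroblasts, smooth muscle and endothelial cells (14, 12 and 12 members higher) and blue in neutrophils and the mixed cluster (15 and 12 lower).

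Epithelial marker RNA was lower in MECA-367 than in rat IgG in each compared immune lineage. Epithelial markers summed to 824, 1226 and 329 CPM in T cells, 3175, 2372 and 931 CPM in the mixed cluster and 2114, 1306 and 832 CPM in fibroblasts, against 22232, 23307 and 23232 CPM in epithelial cells. Jchain, Igkc and Igha summed to 2913, 4537 and 629.9 CPM in the mixed cluster, 3050.2, 2284 and 458 CPM in fibroblasts and 5094, 14104 and 489 CPM in pacemaker-like cells. Cells with over 0.5% of their UMIs from epithelial or fibroblast markers foreign to their lineage made up 39.2%, 27.5% and 20.2% of neutrophils and 10.9%, 5.97% and 3.21% of the mixed cluster. Outside the immune and epithelial lineages only epithelial markers counted, so leukocyte RNA was no ground for leaving out a fibroblast. Leaving the cells over this limit out of every lineage left 386 values. Of these, 42 were higher in MECA-367 than in rat IgG, against 2.77% of all genes, and 39 lower, against 4.49%. In fibroblasts 15 members were then higher, in smooth muscle cells 11 and in endothelial cells 10, against 3.62%, 2.94% and 3.80% of all genes. The lower members of smooth muscle and endothelial cells (Klf6 and Hspd1) and the higher Rgs1 of the mixed cluster were then not called.

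The immune calls changed more in membership. In neutrophils 11 members were then lower, against 7.39%, and 7 of the earlier 15 were among them. Heat shock members with a call numbered 2 in place of 8, Hspa1a and Hspa1b, while Hspd1 was at -0.60 and Hspe1 at -0.52 without a call. Fosl2, Junb, Egr1 and Dusp1 were called only then. In the mixed cluster 8 were then lower, against 2.81%, with 7 of the earlier 12 among them. Its Egr1 ratio was -0.63 and its Atf3 ratio -0.20, both without a call. In NK or ILC1 cells 2 were then lower (Fos and Egr1), against 2.26%. In pacemaker-like cells 0 were then lower, against 2.56%, and Atf3 had a ratio of 0.74. This threshold was set after the data were seen.

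DATK32 differed less from rat IgG. Of the 397 values 10 were higher, against 1.13% of all genes, and 26 lower, against 1.69%. Among values with at least 200 counts, 2.85% of the members' were higher and 5.70% lower, against 1.87% and 1.73% of all genes. Centred on the median of all genes, 12 of the 397 were higher and 18 lower, against 1.49% and 1.28%. The higher ones lay in endothelial cells (5 of 32, against 1.98%), smooth muscle cells (4 of 32, against 1.18%) and pacemaker-like cells (Hspb1 alone, against 1.11%). Fos was higher in smooth muscle cells (0.64 [0.50, 0.78]) and endothelial cells (0.72 [0.52, 0.93]), Hspb1 in endothelial cells (0.91 [0.59, 1.26]) and Atf3 in smooth muscle cells, at 457, 832 and 796 CPM (0.86 [0.56, 1.17]). In fibroblasts 0 members were higher, against 0.812%, and 3 were lower, against 2.28%.

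The lower values of DATK32 lay mostly in immune lineages. NK or ILC1 cells had 6 of 31 lower, against 1.93% of all genes. Fosb was at 561, 197 and 301 CPM in them (-1.51 [-2.03, -1.0]), Dnajb1 at 197, 88.5 and 153 CPM (-1.16 [-1.99, -0.32]) and Hspa1a at 303, 154 and 173 CPM (-0.98 [-1.62, -0.33]). Here rat IgG was the highest library for each gene. With each cell named by its own summed marker fraction, the Hspa1a ratio turned to 0.40. Neutrophils had 6 of 36 lower, against 2.60%, with Hspe1 at -0.93 [-1.24, -0.64] and Hspa1a at -0.81 [-1.07, -0.55], and a heat shock sum of -0.51, which is short of the fold. Monocytes or macrophages had 4 of 35 lower, against 1.23%, with Hspa1a at 310.4, 161 and 193 CPM (-0.94 [-1.25, -0.65]) and Hsph1 at -1.01 [-1.53, -0.53]. B cells had 3 of 32 lower, against 1.23%, led by Hspd1 (-0.77, which turned to 0.12 at a 5% mitochondrial limit) and Fos (-0.74), and plasma cells 2 of 35, against 1.91%, both Egr genes (Egr3 and Egr1). The mixed cluster had 1 lower (Nr4a1, -0.76 [-1.09, -0.45], against 1.06%), as had epithelial cells (Rgs1, against 1.13%). T cells had 0 of 31 called in either direction, against 0.891% higher and 1.02% lower.

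Leaving out the cells with RNA of another compartment changed these immune counts. B cells then had 0 of 31 lower, against 1.04% of all genes. NK or ILC1 cells had 3 (Fosb, Jun and Egr1), against 1.77%, with 0 heat shock members. Neutrophils had 4 of 30, against 1.34%, with Hspa1a the one heat shock member. T cells had 3 (Fosb, Egr1 and Hspd1), against 1.03%. Monocytes or macrophages kept 4 of 4.

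DATK32 and MECA-367 were also set against each other. Of the 397 values 32 were higher in DATK32, against 3.87% of all genes, and 30 lower, against 2.44%. Among values with at least 200 counts, 8.23% of the members' were higher and 9.18% lower, against 5.37% and 3.68% of all genes. Fibroblasts held 18 of the 30 lower ones and 0 higher, against 3.90% and 4.40% of all genes. Rgs1 had a ratio of -1.43 [-1.93, -1.0] there, with the part of leukocyte RNA not tested. Gadd45b had -1.42 [-1.55, -1.30], Hspa1a -1.17 [-1.29, -1.06] and Ier3 -1.10 [-1.23, -0.98]. Other lineages outside the immune ones shared this in part: smooth muscle cells had 5 of 32 lower and 3 higher, against 3.65% and 2.88%, endothelial cells 3 lower, against 2.94%, and epithelial cells 1 (Gadd45b), against 1.09%. In fibroblasts Junb, at 1823, 1552 and 2659 CPM, had -0.78 [-0.85, -0.71]. The higher values of DATK32 lay mostly in immune cells. T cells had 5 of 31 higher and 1 lower, against 3.36% and 3.69%, the mixed cluster 5 of 33 higher and 1 lower, against 3.15% and 1.82%, and neutrophils 5 of 36 higher, against 8.60%. Monocytes or macrophages had 4 of 35 higher, against 4.12%, plasma cells 4 of 35, against 3.92%, B cells 2 of 32, against 2.40%, and pacemaker-like cells 4 of 29, against 2.86%. NK or ILC1 cells had 1 lower (Jund), against 1.89%. In T cells Egr1 was higher in DATK32 (1.60 [1.15, 2.09]), and in the mixed cluster Atf3 was (1.72 [1.41, 2.05]). The first turned to -0.03 when each cell was named by its own summed marker fraction, and the second to -0.26 at resolution 2.0.

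A few genes had a single direction for MECA-367 over rat IgG. Jund had a ratio of MECA-367 over rat IgG above 0 in 12 of 12 lineages, and was called higher in fibroblasts, smooth muscle, endothelial and NK or ILC1 cells. Ier3 was above 0 in the 9 of 9 lineages where it was measured, from 0.19 to 1.40. Klf6, a Krüppel-like factor, was below 0 in 12 of 12 lineages, from -1.38 to -0.09, but centred on the median of all genes it was below 0 in 11, with a highest value of 0.01. Ubb, which encodes a polyubiquitin and comes from the list of other heat shock and chaperone genes, was called higher in all 12 lineages in MECA-367, with levels of 948 and 2518 CPM in fibroblasts of rat IgG and MECA-367 (1.41) and 1122 and 2505 CPM in NK or ILC1 cells (1.15). Its DATK32 levels are not given, so these values do not show that the difference is particular to MECA-367. For DATK32 over rat IgG, 1 of 39 genes of that list was called higher in fibroblasts, against 0.812% of all genes.

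The fibroblasts formed clusters that differed in their shares between libraries and in member levels. The sort was for CD45, which fibroblasts lack, so these shares may not follow the tissue. Of 3 fibroblast clusters, the one led by Lum, Mgp and Fibin made up 50%, 58.0% and 26.2% of fibroblasts, the one led by Adamdec1, C4b and Ccl11 31.3%, 28.5% and 51.7%, and the one led by Ogn, Col4a5 and Col12a1 18.7%, 13.5% and 22.1%. The 36 members were left out of the genes used to cluster. The Fos, Jun and Egr sum was 9861, 10063 and 10544 CPM in the Lum cluster, a ratio of 0.10 for MECA-367 over rat IgG. It was 15058, 14786 and 21934 CPM in the Adamdec1 cluster (0.54) and 16822, 15880.1 and 21238 CPM in the Ogn cluster (0.34). MECA-367 thus had fewer of the cells with the low sum, and a higher sum in the other clusters.

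Called members followed the clusters. In the Lum cluster 3 of 34 were higher in MECA-367 (Ier3, Gadd45b and Hspb1) and 0 lower, against 2.73% of all genes higher. In the Adamdec1 cluster 13 of 35 were higher, against 3.36%, and in the Ogn cluster 8 of 34, against 3.67%, with 0 lower in both. The Nr4a sum was 460.3, 470.4 and 335 CPM in the Lum cluster and 645, 657 and 993 CPM in the Adamdec1 cluster, so MECA-367 was the lowest library in the first and the highest in the second. Gadd45b was higher in MECA-367 in all 3: at 258, 299 and 457 CPM in the Lum cluster, 627, 573 and 1521 CPM in the Adamdec1 cluster and 649, 844 and 1406 CPM in the Ogn cluster. With the 3 clusters weighted equally, 7 of the 14 higher calls of all fibroblasts were kept.

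**Figure D4:**
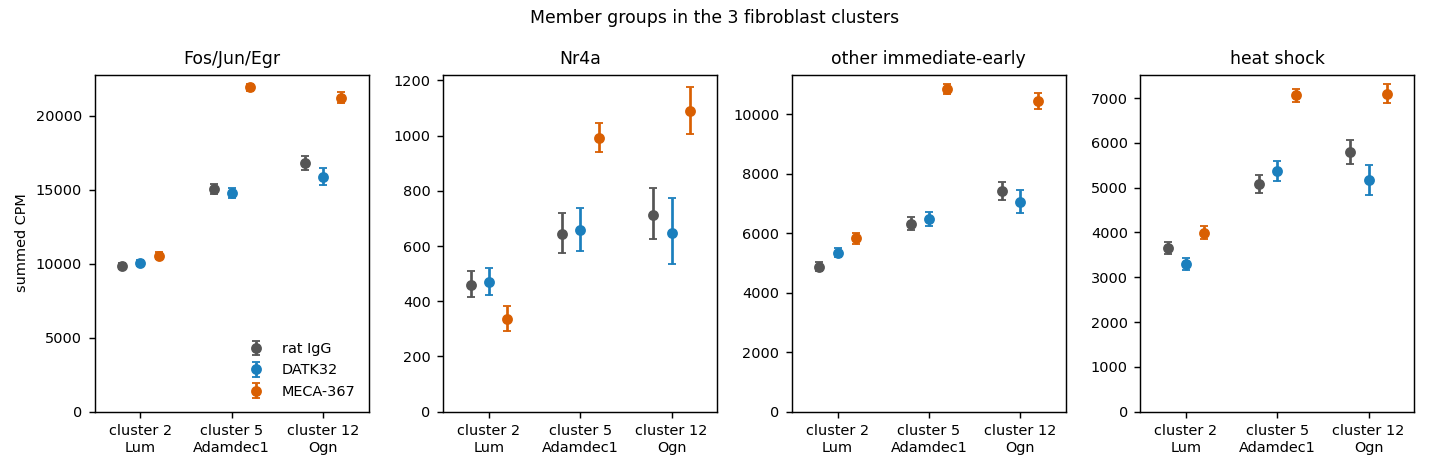
Summed CPM (vertical axes from 0) of the member groups in each of the 3 fibroblast clusters (horizontal axis, with the leading gene) for the 3 libraries, with exact Poisson 95% intervals that cover counting error only. The Fos, Jun and Egr sums of the libraries lie close together in cluster 2, from 9861 to 10544 CPM, and MECA-367 stands apart in cluster 5, at 21934 CPM.

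Mitochondrial share and depth were compared within fibroblasts. The Fos, Jun and Egr sum fell with mitochondrial share in each library: it was 17109.8 CPM under 2.5%, 13984 CPM from 2.5 to 5% and 10273 CPM from 5 to 10% in rat IgG, 18047, 12770.0 and 9030.1 CPM in DATK32, and 26476, 19888 and 13133 CPM in MECA-367. MECA-367 was highest in each bin. By depth, rat IgG had 15455, 11739 and 11839 CPM in cells of under 1000, of 1000 to under 2000 and of at least 2000 UMIs, and MECA-367 had 21208, 22923 and 16901 CPM. Barcodes over the 10% mitochondrial limit, which were left out, were not assigned to lineages and are given for all lineages together. They had Fos, Jun and Egr sums of 12646, 12261 and 13326 CPM with mitochondrial UMIs out of the total, against 9566, 9748 and 9966 CPM in all kept cells. Their heat shock sums were 7231, 7199 and 6949 CPM, against 5747, 5716 and 5177 CPM. The lymphocyte gene Rgs1 was at 20.8, 18.8 and 28.2 CPM in them, against 94.5, 99.7 and 201 CPM. The part of the mix of lineages in these sums was not tested.

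Per cell, the 24 immediate-early genes were spread widely. After thinning to 1000 UMIs, with shallower cells left out (650, 608 and 1094 fibroblasts remained), the median fibroblast had 13, 13 and 25 immediate-early UMIs, and the cell at the upper 90% mark had 37.2, 44 and 70. The median endothelial cell had 13, 22.5 and 26, the median epithelial cell 19 in all libraries, the median neutrophil 12, 11 and 7, and the median plasma cell 5, 4 and 5. The 65, 60 and 109 fibroblasts with the most Fos, Jun and Egr UMIs held 32.5%, 33.5% and 27.3% of such UMIs. No heat shock UMI was seen in 11.8%, 24.5% and 35.5% of thinned neutrophils, an order that matches their CPM.

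**Figure D5:**
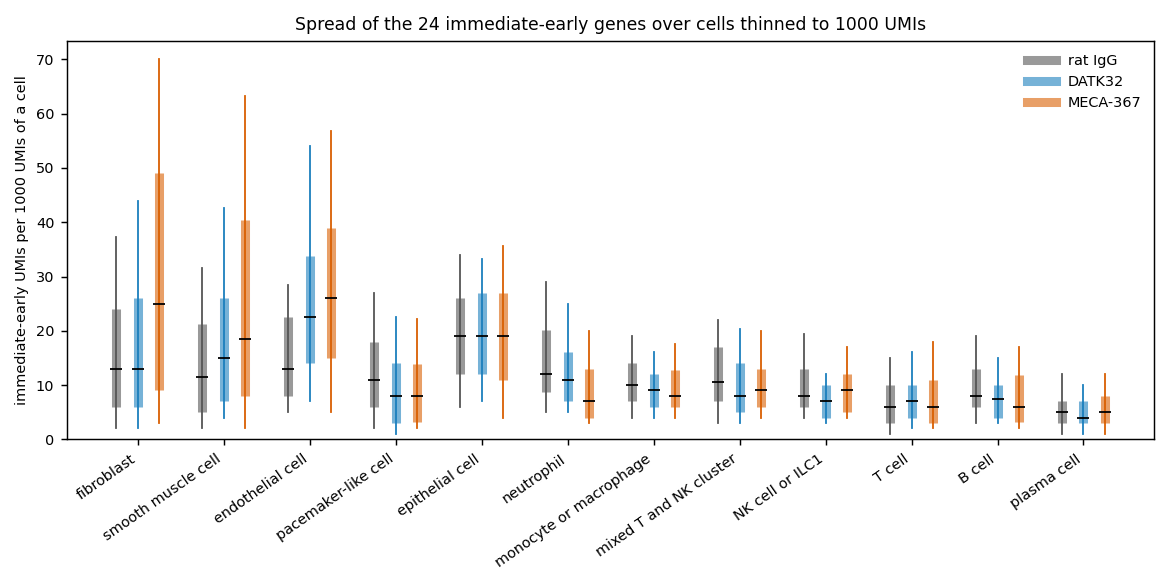
Immediate-early UMIs per 1000 UMIs of a cell (vertical axis, 24 genes) by lineage and library, over cells thinned to 1000 UMIs. Black marks are medians, wide bars the middle 50% of cells and thin lines the 10% to 90% range. The fibroblast median of MECA-367 is 25, against 13 in rat IgG and DATK32, and epithelial medians are 19 in all.

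How far the groups moved together over cells differed by group. Across thinned fibroblasts the Spearman correlation of the Fos, Jun and Egr UMIs with the other immediate-early UMIs was 0.77, 0.79 and 0.86, and with the heat shock UMIs 0.38, 0.35 and 0.52. Across epithelial cells these were 0.63, 0.60 and 0.69, and 0.02, -0.02 and -0.06. With the Nr4a UMIs the correlation was 0.31, 0.41 and 0.51 in fibroblasts and 0.37, 0.32 and 0.39 in epithelial cells, so neither lineage was higher in every library. In MECA-367, the 364 fibroblasts with the most Fos, Jun and Egr UMIs had a mean of 9.90 heat shock UMIs per 1000, against 3.55 in the 364 with the fewest. For the 214 epithelial cells at each end the means were 6.10 and 6.21. These are descriptions over cells of 1 library, which share its handling and depth. They also pool the clusters of a lineage, which differ in level. In rat IgG the Fos, Jun and Egr sum and the heat shock sum were 13400.1 and 5349 CPM in the epithelial cluster led by Spink4. In the epithelial cluster led by Hist1h2ap they were 8354 and 8264 CPM. In fibroblasts they were 9861 and 3650.0 CPM in the Lum cluster and 16822 and 5792 CPM in the Ogn cluster. Correlations within clusters were not tested.

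The related genes outside the 36 were taken from lists of 41 other immediate-early and feedback genes, 16 genes that carry signals to them and 42 other heat shock and chaperone genes. In fibroblasts 16 of 38 measured immediate-early and feedback genes were higher in MECA-367 than in rat IgG and 0 lower, against 3.76% and 7.26% of all genes, with a median of 0.40 against -0.11 over all genes. Among them were the chemokine gene Ccl4, at 52.2 in rat IgG and 143 CPM in MECA-367 (1.44), the interferon-regulated factor gene Irf1, at 229.6 and 552 CPM (1.26), and Gadd45g, at 427 and 1013 CPM (1.24). Ccl4 was also a leading gene of the mast cell or basophil cluster, and the part of leukocyte RNA in fibroblast values was not tested. In the mixed cluster 0 of 35 were higher and 4 lower, against 3.24% and 4.95%, led by the chemokine gene Cxcl2, at 148 and 37.8 CPM (-1.95). In smooth muscle cells 7 of 26 were higher and 2 lower, against 3.53% and 3.16%, and in endothelial cells 6 of 28 were higher and 0 lower, against 3.90% and 4.22%.

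The genes upstream of the immediate-early response differed less. In fibroblasts 0 of 15 were higher and 1 lower (Elk3, a serum response factor partner, at 57.7 in rat IgG and 28.5 CPM in MECA-367, a ratio of -1.01), against 3.76% and 7.26% of all genes. The other chaperone genes in fibroblasts had 2 of 39 higher and 0 lower, against the same shares, with a median of -0.06, so the heat shock members that were higher (Hspa1a, Dnajb1, Hsp90aa1 and Hspb1) were not accompanied by most other chaperones. In neutrophils 8 of 31 other chaperone genes were lower and 1 higher, near the 18.7% and 5.51% of all genes, with a median of -0.49 against -0.40 over all genes.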

How the data were processed

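The samples are 3 single-cell libraries of sorted large intestine cells, 1 per antibody. Per the submitters' processing notes the authors used Cell Ranger 6.0.2 with build mm10; the strand setting and the cell filter are not given in the sources used here. The deposited matrices hold counts, whole UMI counts per gene and barcode, not normalized. From these, barcodes were kept that had 500 or more UMIs, 200 or more genes and a mitochondrial share up to 10%. Cells of all libraries were clustered together with scanpy 1.11.5 (2000 variable genes without the 36 members, 30 components, 15 neighbours, Leiden resolution 1.0 with igraph 0.11.9) and no batch correction. Clusters were named from 18 marker lists by a minimum score of 1.0, a margin of 0.3 over the next list and 3 markers present in 5% of cells, thresholds set after seeing the data. In addition, no other list could have more genes among a cluster's 10 leading genes. A cluster that failed only the margin or this last rule was named mixed where the T cell and NK or ILC1 lists scored highest. The mixed cluster scored 2.37 for T cell and 1.16 for NK or ILC1 markers, with 2 and 3 of their genes leading. Doublets were not removed in the main values; removing the highest scrublet scores (434, 274 and 278 cells) was an alternative.

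Counts were summed by lineage and library and given as CPM with exact Poisson 95% intervals (scipy 1.17.1). The total of 1469 to 1824 UMIs in the median cell limits what single cells show. With 1 library per group no test was made: a call is a difference of at least 1.5-fold with intervals apart, and it compares libraries, not treatments. The calling code was tested on simulated data. Alternatives numbered 19, of which 2 were added after seeing the data. In a lineage, called members are named largest ratio first, at most 8, and other members to give levels. The members, groups and gene lists were chosen with earlier results of these data known. RefSeq promoter windows (GRCm38.p6) were matched by symbol for 30 of 36 members.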

Additional observations from a re-analysis of the deposited data

Results flagged for a closer look

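Members called higher in 1 lineage and lower in another within the same comparison are listed with their highest and lowest called log2 ratios. The differences between lineages were not tested, since each library is a single sample.

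For DATK32 over rat IgG there were 2. Fos had 0.72 in endothelial cells and -0.74 in B cells. Hsph1 had 1.17 in endothelial cells and -1.01 in monocytes or macrophages.

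For MECA-367 over rat IgG there were 14, and for 11 of them the higher value lay in fibroblasts, smooth muscle or endothelial cells and the lower one in immune cells. Among the AP-1 genes, Fos had 0.99 in endothelial and -1.14 in NK or ILC1 cells, Fosb had 0.79 in smooth muscle cells and -0.98 in the mixed T and NK cluster, and Jun had 0.67 in endothelial cells and -0.76 in the mixed cluster. Of the Nr4a genes, Nr4a1 had 0.60 in endothelial and -1.18 in plasma cells, and Nr4a3 had 0.69 in fibroblasts and -0.96 in neutrophils. Zfp36 had 0.66 in endothelial cells and -1.14 in the mixed cluster, Atf3 had 0.79 in smooth muscle cells and -1.42 in the mixed cluster, and Klf4 had 0.89 in smooth muscle and -1.5 in B cells. Of the heat shock genes, Hspa1a had 0.85 in fibroblasts and -1.26 in B cells, Dnajb1 had 0.84 in fibroblasts and -0.80 in monocytes or macrophages, and Hspa8 had 0.68 in endothelial cells and -0.62 in neutrophils. The other 3 had another layout. Rgs1 had 0.72 in the mixed cluster and -0.99 in neutrophils, Hspe1 had 0.79 in T cells and -1.19 in neutrophils, and Hspb1 had 1.03 in smooth muscle and -0.69 in epithelial cells.

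For DATK32 over MECA-367 there were 7. Egr1 had 1.60 in T cells and -0.61 in fibroblasts, Nr4a1 had 0.76 in plasma cells and -0.62 in fibroblasts, and Nr4a2 had 0.89 in plasma cells and -0.68 in fibroblasts. Zfp36 had 0.90 in the mixed cluster and -0.73 in fibroblasts, and Klf4 had 1.58 in B cells and -0.67 in fibroblasts. Hspa1b had 1.28 in B cells and -0.68 in smooth muscle cells, and Hspd1 had 0.72 in smooth muscle cells and -0.66 in T cells.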

How the results depend on the processing

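No paired analysis was possible because each group has 1 library. Over 19 alternatives, 15 of the 45 member values higher in MECA-367 than in rat IgG and 6 of the 62 lower ones were called in every alternative that gave a value; 44 and 61 were called in most. For DATK32 over rat IgG, 2 of 10 higher and 4 of 26 lower values were called in every one, and for DATK32 over MECA-367, 0 of 32 higher and 10 of 30 lower. Lineages under 50 cells in a library gave no value, which leaves fewer lineages under some settings. The alternatives include count minimums of 20 and 200, which decide only whether a value is given and so could not change a call. Where a cause is not given below, it was not tested.

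Counts that moved by over 1.5 times were these. Some settings measured fewer values, so each count is given of its own total and set against the share of all genes. Values higher in DATK32 than in rat IgG numbered 10 of 397 as reported, against 1.13%. They numbered 4 of 268 in cells of 1000 or more UMIs and 500 or more genes, against 1.22%. As a mean over cells they were 6 of 397, against 0.907%, and in cells thinned to 1000 UMIs 3 of 296, against 1.54%. Values lower in MECA-367 than in rat IgG numbered 62 of 397 as reported, against 6.49% of all genes. They numbered 39 of 325 at a 5% mitochondrial limit, against 4.87%, and 40 of 397 as a mean over cells, against 4.85%. After thinning they were 33 of 296, against 4.80%, and without cells holding RNA of another compartment 39 of 386, against 4.49%. Values higher in DATK32 than in MECA-367 numbered 32 of 397 as reported (8.06%), against 3.87% of all genes. At the 5% limit they were 10 of 325 (3.08%), against 3.41%. With each cell named by its summed marker fraction they were 12 of 329 (3.65%), against 3.70%. As a mean over cells they were 11 of 397 (2.77%), against 2.64%, and after thinning 9 of 296 (3.04%), against 2.82%. In these settings the members' share was thus near that of all genes. Without cells holding RNA of another compartment they were 17 of 386 (4.40%), against 3.07%. Values lower in DATK32 than in MECA-367 numbered 30 of 397 as reported, against 2.44% of all genes. With clusters weighted equally they numbered 19 of 397, against 2.21%.

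Log2 ratios that turned direction are given in the order of the settings. With each cell named by marker fraction, DATK32 over MECA-367 turned to -0.31 for the Nr4a sum and -0.16 for Atf3 in pacemaker-like cells and to -0.03 for Egr1 and -0.10 for Zfp36 in T cells. MECA-367 over rat IgG turned to 0.79 for Atf3 and 0.21 for Dusp1 in pacemaker-like cells and to 0.07 for Jun in NK or ILC1 cells, where DATK32 over rat IgG turned to 0.40 for Hspa1a, 0.12 for Hspa1b and 0.14 for Jun. At resolution 2.0, Atf3 in the mixed cluster turned to -0.26 (DATK32 over MECA-367) and 0.50 (MECA-367 over rat IgG), Egr1 there to -0.28 (DATK32 over MECA-367), and in monocytes or macrophages Dnajb1 to 0.03 (DATK32 over rat IgG) and 0.14 (MECA-367 over rat IgG) and Rgs1 to 0.16 (DATK32 over rat IgG). At the 5% mitochondrial limit, Atf3 in plasma cells turned to 0.23 and Klf4 in neutrophils to 0.11 (both MECA-367 over rat IgG), Egr1 in monocytes or macrophages to -0.23 (DATK32 over MECA-367) and Hspd1 in B cells to 0.12 (DATK32 over rat IgG). In T cells at a 20% limit, Hspd1 turned to 0.16 (DATK32 over MECA-367) and Hspe1 to -0.04 (MECA-367 over rat IgG), with every deposited barcode to 0.52 and -0.27, and after thinning to 0.52 and -0.14. Thinning also turned Ier2 in T cells to -0.27 and Hsph1 in plasma cells to -0.06 (both DATK32 over MECA-367). As a mean over cells, DATK32 over MECA-367 turned to -0.17 for Egr1 in monocytes or macrophages and, in T cells, to -0.06 for Fos and -0.14 for Zfp36. Without cells holding RNA of another compartment, Atf3 in pacemaker-like cells turned to -0.38 (DATK32 over MECA-367) and 0.74 (MECA-367 over rat IgG), Klf6 in smooth muscle cells to -0.03 (DATK32 over MECA-367) and Hspd1 in neutrophils to 0.29 (DATK32 over rat IgG). With the highest scrublet scores removed, Atf3 in pacemaker-like cells turned to -0.25 (DATK32 over MECA-367).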

Other observations

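Lineages left out of the comparisons for their size also held high member levels. Type 2 innate lymphoid cells had Fos, Jun and Egr sums of 9984, 7965 and 10874 CPM in rat IgG, DATK32 and MECA-367, over 44, 54 and 134 cells, above every compared immune lineage in rat IgG and MECA-367. Nr4a1 was at 1125, 961 and 1364 CPM and Nr4a3 at 683, 496 and 823 CPM in them. Squamous epithelial cells, which were found in rat IgG and DATK32 only (231, 178 and 0 cells), had Fos at 981 and 1103 CPM and Hspb1 at 707 and 732 CPM, against 40.1 and 27.8 CPM in the other epithelial cells of these libraries.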
